A study of Mus musculus with 21 samples.

Results

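The 10 genes described here mark the making of muscle fibres: the myogenic regulatory factors Myf5, Myod1, Myog and Myf6, the satellite cell genes Pax7 and Cdh15, the developmental myosins Myh3 and Myh8, and Ncam1 and Runx1, which rise in denervated and in regenerating muscle. They were chosen by name, with earlier results of these data known, from the 46071 genes of a count table of mouse hindlimb muscle. Each matched 1 row of the table by its Ensembl identifier, and all 10 passed the filter on low counts that kept 12658 genes for testing.

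RNA sequencing was done on 21 libraries from quadriceps and gastrocnemius that had been powdered and mixed. The series asks how FoxO transcription factors take part in the muscle wasting of diabetes. The TKO group (6 libraries) came from mice with Foxo1, Foxo3 and Foxo4 floxed and deleted by ACTA1-Cre, a recombinase under the skeletal muscle actin promoter, and the floxed group (4 libraries) from their littermate controls, which the labels give as floxed. The STZ TKO group (6 libraries) and the STZ floxed group (5 libraries) had the same genotypes and were made diabetic with streptozotocin (STZ), which destroys pancreatic beta cells. STZ was injected once at 150 mg/kg after a fast, females had a further 75 mg/kg on day 3, and mice were used only if random blood glucose stayed above 300 mg/dL; mice without STZ are described as having had citrate buffer. All mice were on a mixed background of C57Blk6, C57Blk6J and 129 strains, and the labels give neither age nor sex per library. The recombinase is driven by a promoter of differentiated muscle fibres, so satellite cells, macrophages and other cells of the tissue keep their FoxO genes by design. Fewer cells of a type and less RNA per cell cannot be told apart in such whole-muscle RNA.

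Satellite cells are the resident stem cells of skeletal muscle. Resting satellite cells carry the transcription factor Pax7 and the adhesion protein M-cadherin (Cdh15). When they are activated they express Myf5 and Myod1, and as they differentiate and fuse they switch on Myog. New fibres first make the embryonic myosin heavy chain Myh3 and the perinatal form Myh8, and later replace both with adult forms, while Myf6 (MRF4) is the factor of this family that mature fibres express most. The myogenic regulatory factors are basic helix-loop-helix proteins that bind E-boxes, short DNA elements with the letters CANNTG. Myog, Ncam1 and Runx1 are also induced in existing fibres when the nerve is cut, so a rise of these genes alone does not name its cell of origin. For the other genes too, Myod1 among them, whole-muscle RNA does not show which cells made the RNA.

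The promoters of Myog and Myh3 are shown because both genes rose in knockout muscle. The windows are RefSeq sequence of GRCm38.p6, from 250 bases before to 50 bases after the annotated start, written 5′ to 3′ on the gene's strand, with each E-box in capitals. The Myog window is chr1:134289754-134290053 on the plus strand and holds 2 E-boxes, and the Myh3 window is chr11:67078050-67078349 on the plus strand and holds 1.
Myog: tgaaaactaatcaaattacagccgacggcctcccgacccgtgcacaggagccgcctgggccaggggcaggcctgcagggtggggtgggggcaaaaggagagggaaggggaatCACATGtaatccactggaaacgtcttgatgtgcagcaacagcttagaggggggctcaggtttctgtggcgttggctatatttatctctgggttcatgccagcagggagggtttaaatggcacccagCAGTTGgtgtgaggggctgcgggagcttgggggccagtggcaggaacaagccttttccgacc
Myh3: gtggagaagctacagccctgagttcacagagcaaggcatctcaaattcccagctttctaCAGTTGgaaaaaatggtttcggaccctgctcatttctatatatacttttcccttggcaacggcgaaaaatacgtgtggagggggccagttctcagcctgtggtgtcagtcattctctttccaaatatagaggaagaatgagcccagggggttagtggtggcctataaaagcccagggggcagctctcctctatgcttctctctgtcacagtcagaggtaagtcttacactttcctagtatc
Of the 10 genes, 7 had a promoter window in the set used. Myod1, Myf6 and Ncam1 had none, so nothing is given here for their promoters. Searched on both strands, CANNTG occurred 2 times in the Myh8 window, 4 times in that of Cdh15, 3 times in 1 of the 2 Runx1 windows, and not in those of Myf5 and Pax7. E-boxes are common: 72.3% of 32851 windows of this length held at least 1. The letters GTAAACA, the core of many forkhead sites, were in none of the 7 genes' windows and in 3.65% of all windows. The letters TGTGGT, the core of Runx sites, were found 1 time each in the Myh3, Cdh15 and Myf5 windows and 2 times in the Runx1 window with E-boxes, and in 16.8% of all windows. These are matches of letters in short windows and say nothing of binding.

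Libraries held 2951290 to 7687823 counts: 2951290 to 6014870 in TKO, 4176132 to 7687823 in floxed, 3586183 to 6234979 in STZ TKO and 3377613 to 7676700 in STZ floxed. Values are CPM, the usual depth-scaled counts, on the TMM-adjusted library size. As the labels require, Foxo4 had 3.87 to 8.29 CPM in TKO, against 124.2 to 195.2 CPM in floxed, and 5.35 to 12.7 CPM in STZ TKO, against 182.1 to 201.0 CPM in STZ floxed. Foxo1 averaged 15.2 ± 4.68 CPM in the 12 knockout libraries and 62.2 ± 24.8 CPM in the 9 floxed ones (SD). Foxo3 was not lower (log2 fold change 0.49 ± 0.17, adjusted p = 0.0674, edgeR's quasi-likelihood test). DESeq2 called Foxo3 higher, as did edgeR without libraries 4 and 20. These counts do not show which exons were removed. The libraries hold mature muscle, with the summed level of 18 fibre markers at 98786 to 304916 CPM. Libraries 20 (TKO) and 4 (STZ TKO) stood apart for the genes described here: library 20 ranked first of 21 for 7 of the 10 genes and in the top 3 for 9, and library 4 was in the top 3 for 7. Library numbers are those of the sample titles. Both libraries also had high macrophage marker levels. The pooled calls among the 10 genes and the counts of most lists are therefore also given without them. Genes named from a list are mostly given with all libraries only.

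**Figure D1:**
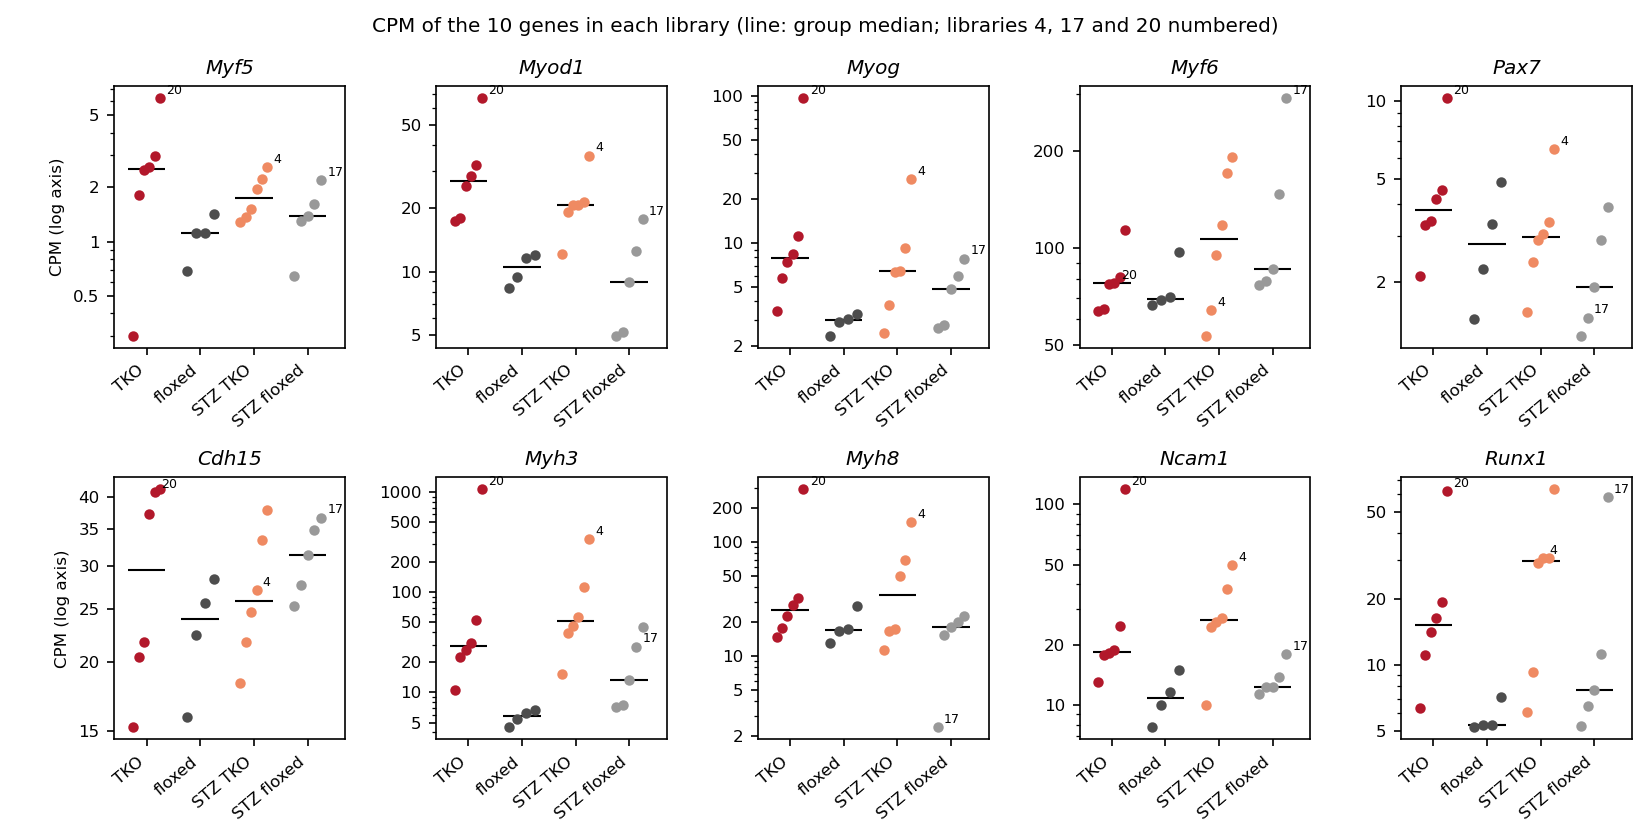
CPM of each of the 10 genes in every library, on log axes, with a point per library and a line at the group median, for TKO, floxed, STZ TKO and STZ floxed. Library 20 is the highest TKO library for Myf5, Myod1, Myog, Pax7, Myh3, Myh8, Ncam1 and Runx1, and library 4 the highest STZ TKO library for Myf5, Myod1, Myog, Pax7, Myh3, Myh8 and Ncam1.

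Per kilobase of exon, the level of the 10 genes in floxed muscle fell in the order Myf6, Cdh15, Myod1, Myog, Myh8, Ncam1, Myh3, Myf5, Pax7 and Runx1. Exon length was the merged length of all annotated exons. It is 11772 bases for Myh8, 12025 for Runx1 and 8664 for Ncam1, against 6149, 5861 and 6564 in their longest protein-coding transcripts. Their places in this order, and the Myh8 share given below, depend on that choice. Myf6 stood alone at 59.8 ± 11.3 CPM per kilobase (SD, n = 4), against 7.10 ± 1.65 for Cdh15 and 5.57 ± 0.933 for Myod1, which overlapped. Myog had 1.94 ± 0.272, Myh8 1.58 ± 0.518 and Ncam1 1.28 ± 0.354 CPM per kilobase, and each overlapped its neighbour. Myh3 followed at 0.940 ± 0.159, and the lowest 3 genes, Myf5 (0.522 ± 0.146), Pax7 (0.507 ± 0.254) and Runx1 (0.476 ± 0.0794), did not differ beyond their spread. In TKO muscle the mean order was different, with Myh3 second at 33.2 ± 69.8 CPM per kilobase (n = 6), where library 20 had 175.5.

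In knockout muscle as a whole, 4 of the 10 genes rose and none fell. This comparison took the mean of both knockout effects, with and without STZ, over 12 knockout and 9 floxed libraries. Myod1, Myh3, Ncam1 and Myog passed the test, where 9.8% of all genes tested passed it and 5.57% rose. The log2 fold change was positive for 9 of the 10 genes, against 52.7% of all genes. At an unadjusted p under 0.05 there were 7 of the 10, against 22.7% of all genes, and DESeq2 called 5, the fifth being Myh8. No gene of the 10 separated the 12 knockout libraries from all 9 floxed ones, which 0.15% of genes did with the knockout libraries higher.

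Myod1 (chromosome 7, 46376474 to 46379099, plus strand, GRCm38), the factor that commits activated satellite cells to the muscle lineage, rose by 1.36 ± 0.26 on the log2 scale (adjusted p = 0.00173, edgeR's quasi-likelihood test with Benjamini-Hochberg adjustment). It averaged 26.6 ± 14.4 CPM in the 12 knockout libraries and 10.1 ± 3.99 CPM in the 9 floxed libraries (SD). TKO libraries ran from 17.4 through a median of 27.0 to 67.2 CPM, against 12.0, 8.35, 9.47 and 11.6 CPM in floxed libraries. Each of the 6 TKO libraries lay above every floxed library, as for 2.35% of all genes tested. STZ TKO libraries ran from 12.1 through a median of 20.7 to 35.7 CPM, against 8.90, 5.18, 12.6, 17.8 and 4.94 CPM in STZ floxed libraries. There the groups overlapped, through library 8 of STZ TKO and libraries 14 and 17 of STZ floxed. Without libraries 4 and 20 the pooled log2 fold change of Myod1 was 1.08 (adjusted p = 0.00277), and it passed with each library left out in turn, at 1.18 to 1.53.

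Myog (chromosome 1, 134289989 to 134292548, plus strand), the factor that drives terminal differentiation, had a pooled log2 fold change of 1.96 ± 0.58 (edgeR adjusted p = 0.0334), with 15.7 ± 26.3 CPM in knockout libraries and 3.96 ± 1.87 CPM in floxed libraries. Library 20 alone had 96.7 CPM, and the knockout SD exceeded the mean. TKO libraries had 3.44 to 96.7 CPM with a median of 7.92, against 2.92, 3.06, 3.27 and 2.33 CPM in floxed libraries. All TKO libraries lay above the floxed ones, the lowest of them, library 16, by a small margin. Libraries of STZ TKO had 2.43 to 27.1 CPM with a median of 6.42, against 2.77, 4.86, 5.98, 7.82 and 2.62 CPM in STZ floxed libraries. These ranges overlapped: libraries 4 and 15 of STZ TKO lay above all STZ floxed libraries and library 18 of STZ TKO below them all. The call for Myog was lost without library 20 (log2 fold change 1.13, adjusted p = 0.0635), without library 4 (1.60, 0.0706) and without any 1 of libraries 1, 3, 5, 9, 15, 19 and 21 (1.89 to 1.99, 0.0501 to 0.0691). Without both 4 and 20 it was 0.76 (0.106).

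Myf5 (chromosome 10, 107482908 to 107486134, minus strand), an early factor of satellite cells, was counted at 1 to 43 reads per library. TKO libraries had 0.3 to 6.25 CPM with a median of 2.54, against 1.11, 1.11, 0.689 and 1.43 CPM in floxed libraries. In the TKO group 5 libraries lay above the floxed range and library 2 below it. STZ TKO libraries had 1.29 to 2.60 CPM with a median of 1.73, against 1.61, 0.647, 1.30, 2.18 and 1.39 CPM in STZ floxed libraries, an overlap. The pooled log2 fold change was 0.84 ± 0.33 (edgeR adjusted p = 0.111). It was 0.96 (0.0272) without library 2, the TKO library with 1 Myf5 read.

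Myf6 (chromosome 10, 107492853 to 107494737, minus strand) lies beside Myf5 and did not follow it. TKO libraries had 63.8 to 113.8 CPM with a median of 77.5, against 66.3, 96.9, 68.6 and 70.5 CPM in floxed libraries. In STZ TKO it had 53.2 to 192.1 CPM with a median of 106.6, against 85.7, 76.4, 78.7, 292.5 and 147.3 CPM in STZ floxed libraries. Both pairs of groups overlapped almost fully, and library 17 of STZ floxed was the highest of all 21. The pooled log2 fold change was -0.08 ± 0.25 (edgeR adjusted p = 0.900).

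The satellite cell genes had no call. Pax7 (chromosome 4, 139737062 to 139833528, minus strand) had 2.10 to 10.3 CPM in TKO libraries with a median of 3.80, against 4.87, 3.34, 2.24 and 1.43 CPM in floxed libraries. In STZ TKO libraries Pax7 had 1.52 to 6.50 CPM with a median of 2.99, against 1.90, 2.91, 3.90, 1.45 and 1.23 CPM in STZ floxed libraries. The ranges overlapped in both pairs, and libraries 20 and 4 were the highest of their groups. The pooled log2 fold change of Pax7 was 0.61 ± 0.31 (edgeR adjusted p = 0.246), and 0.25 without libraries 4 and 20. Cdh15 (chromosome 8, 122847966 to 122867397, plus strand) had 15.2 to 41.3 CPM in TKO libraries, against 25.6, 28.4, 22.4 and 15.9 CPM in floxed libraries, and 18.3 to 37.9 CPM in STZ TKO libraries, against 25.3, 31.4, 27.6, 36.7 and 34.9 CPM in STZ floxed libraries. These ranges overlapped too, and its pooled log2 fold change was 0.08 ± 0.18 (adjusted p = 0.859), the narrowest error of the 10 genes.

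Myh3 (chromosome 11, 67078300 to 67102291, plus strand), the embryonic myosin heavy chain, had the largest fold of the 10 genes, 3.72 ± 0.85 on the log2 scale (edgeR adjusted p = 0.00722). It averaged 151.0 ± 300.7 CPM in the 12 knockout libraries and 13.8 ± 14.0 CPM in the 9 floxed libraries. TKO libraries had 10.5 to 1063.1 CPM with a median of 29.0, against 5.43, 6.68, 6.20 and 4.47 CPM in floxed libraries. Every TKO library was above every floxed one, and library 20 was 40-fold above the median of the other 5 TKO libraries. STZ TKO libraries had 15.2 to 337.3 CPM with a median of 51.2, against 7.15, 7.45, 45.3, 28.7 and 13.3 CPM in STZ floxed libraries. In this pair 4 STZ TKO libraries lay above all STZ floxed libraries, and libraries 14 and 17 of STZ floxed reached into the STZ TKO range. Without libraries 4 and 20 the pooled log2 fold change of Myh3 fell from 3.72 to 1.86, and the call stayed (edgeR adjusted p = 0.00626).

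Myh8 (chromosome 11, 67277124 to 67308634, plus strand), the perinatal form, had 14.6 to 289.4 CPM in TKO libraries with a median of 25.1, against 17.3, 27.3, 16.7 and 13.1 CPM in floxed libraries. In STZ TKO it had 11.2 to 148.9 CPM with a median of 34.0, against 19.7, 22.3, 15.2, 2.36 and 17.9 CPM in STZ floxed libraries. Libraries 20, 4, 15 and 11 were the high ones, and the rest of the knockout libraries were near the floxed range. Its pooled log2 fold change was 1.82 ± 0.59 (edgeR adjusted p = 0.0539), and 0.71 (0.291) without libraries 4 and 20. It passed without any 1 of libraries 2, 8, 10, 12, 13, 16 and 18 (1.91 to 1.93, 0.0345 to 0.0461) and with the run of library codes as a block (1.78, 0.0400). Of the Myh8 transcript, 21.4% of 50-base windows also occur in the adult or other myosin genes, against 4.81% for Myh3, so stretches of that length do not name 1 gene only. How the counting treated such reads is not given in the sources used here.

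As a share of the signal of 6 myosin heavy chain genes (Myh1, Myh2, Myh3, Myh4, Myh7 and Myh8, CPM per kilobase of merged exon), Myh3 stayed small. It made up 0.0165 to 2.97% in TKO libraries, against 0.00558 to 0.00845% in floxed libraries, and 0.0413 to 0.705% in STZ TKO libraries, against 0.00789 to 0.125% in STZ floxed libraries. The highest shares were those of libraries 20 and 4, and the next TKO library, 10, had 0.0771%. Myh4, the fast adult form of type IIb fibres, took 84.6% in library 20, against 90.7 to 93.8% in the other TKO libraries and 92.4 to 94.6% in floxed libraries. The Myh8 share was 0.416% in library 20 and 0.160% in library 4, against at most 0.0243% in the other TKO libraries and at most 0.0591% in the other STZ TKO libraries.

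**Figure D2:**
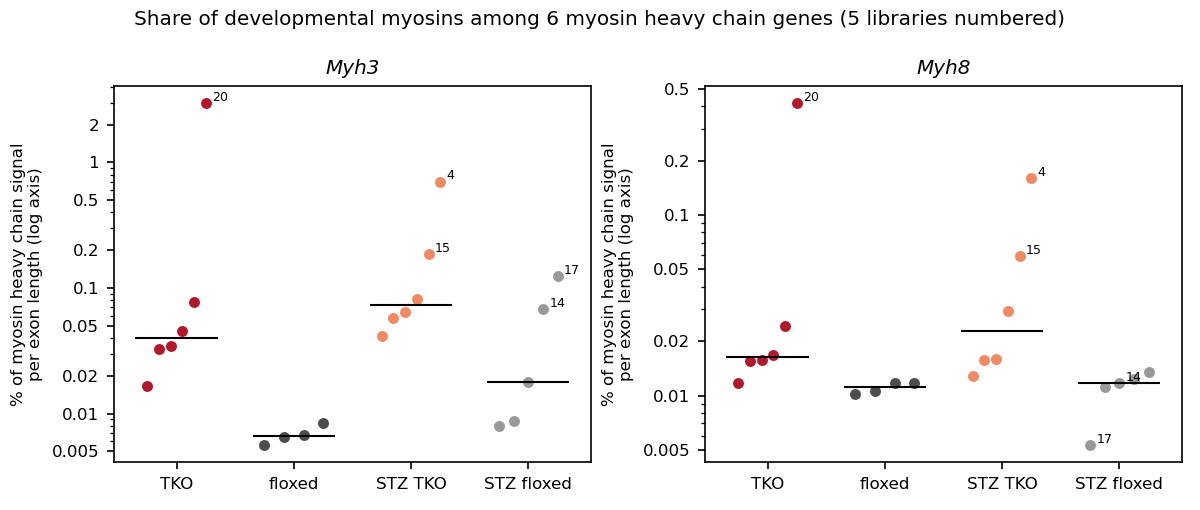
Share of Myh3 and of Myh8 in the summed signal of 6 myosin heavy chain genes per exon length, in percent on log axes, with a point per library and a line at the group median. Myh3 was 2.97% in library 20 and 0.705% in library 4, and all TKO libraries lay above the floxed range of 0.00558 to 0.00845%.

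Ncam1 (chromosome 9, 49502136 to 49798925, minus strand), a cell adhesion protein of satellite cells, young fibres and denervated fibres, rose by 1.40 ± 0.36 on the log2 scale (edgeR adjusted p = 0.0150), to 32.3 ± 29.3 CPM in knockout libraries, against 12.5 ± 2.94 CPM in floxed libraries. TKO libraries had 13.0 to 118.7 CPM with a median of 18.5, against 15.0, 11.7, 7.75 and 10.0 CPM in floxed libraries. STZ TKO libraries had 10.0 to 50 CPM with a median of 26.6, against 12.3, 12.3, 13.8, 18.0 and 11.4 CPM in STZ floxed libraries. In each pair 5 of the 6 knockout libraries were above the whole floxed range, the exceptions being library 13 of TKO and library 8 of STZ TKO. Without libraries 4 and 20 the log2 fold change was 0.82 (adjusted p = 0.0126).

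Runx1 (chromosome 16, 92601466 to 92826149, minus strand), a transcription factor that protects denervated fibres from wasting and is also expressed by many leukocytes, had no call. TKO libraries had 6.32 to 62.2 CPM with a median of 15.2, against 5.29, 5.29, 5.17 and 7.16 CPM in floxed libraries. In STZ TKO it had 6.07 to 63.3 CPM with a median of 29.9, against 5.25, 6.47, 11.2, 58.5 and 7.71 CPM in STZ floxed libraries. In TKO all libraries but 13 were above every floxed library. In the STZ pair the groups overlapped, with library 17 of STZ floxed, at 58.5 CPM, second only to library 18 of STZ TKO, and with libraries 8 and 12 of STZ TKO among the STZ floxed values. The pooled log2 fold change was 1.30 ± 0.49 (edgeR adjusted p = 0.108), 1.91 (0.00632) without library 17, and 1.35 (0.0460) with the run of library codes as a block. The same library had 62 reads of Ms4a1, a B-cell gene named after its values were seen, where no other library had more than 3, and its summed mature fibre level was the lowest, at 98786 CPM. The part of these in its Runx1 level was not tested.

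**Figure D3:**
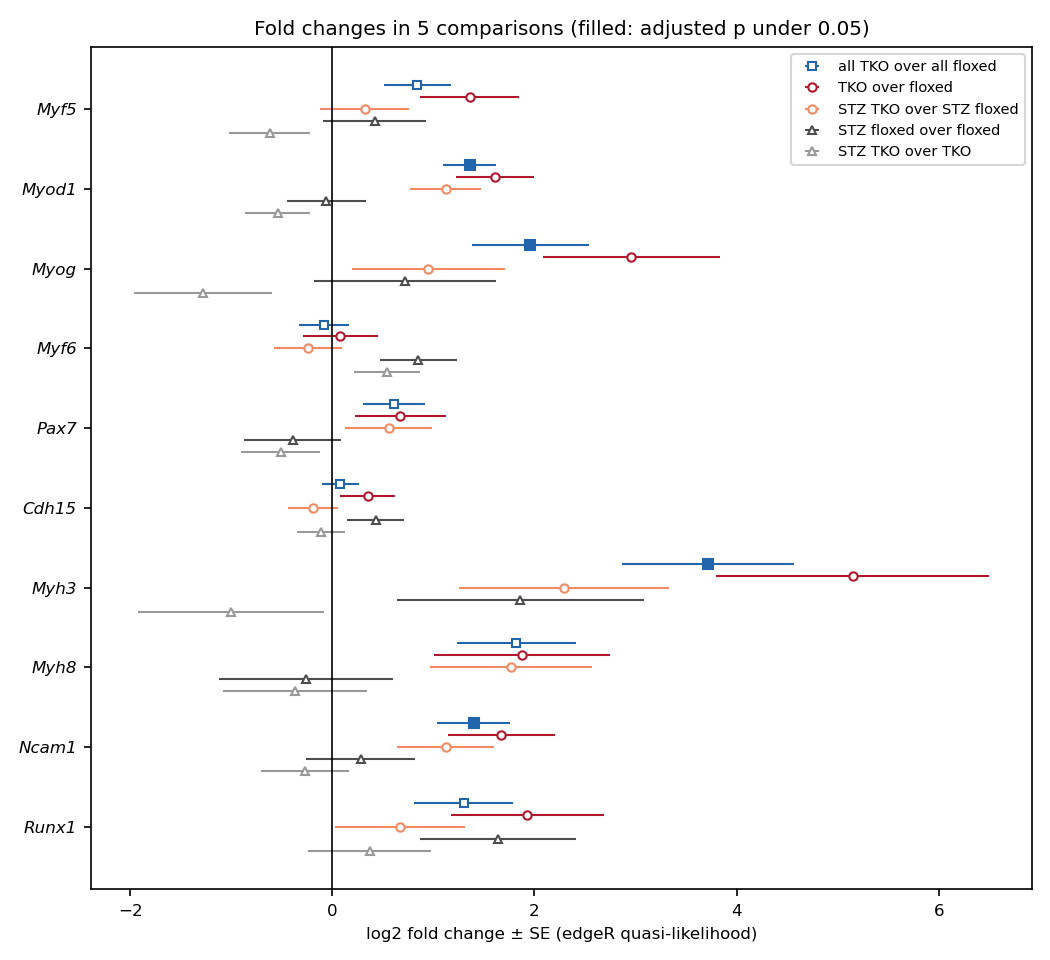
Log2 fold changes with their standard errors for the 10 genes in 5 comparisons from edgeR's quasi-likelihood test, with filled markers where the adjusted p was under 0.05. Only the pooled comparison of all knockout with all floxed libraries has filled markers, for Myod1, Myog, Myh3 and Ncam1.

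Without STZ, taken by itself, the knockout had no call among the 10 genes, against 0.514% of all genes. By edgeR's quasi-likelihood test the log2 fold changes were positive for all 10, against 50.5% of all genes, and 7 of the 10 had an unadjusted p under 0.05 and were higher, against 6.7% of all genes; DESeq2 called 4 (Myod1, Myog, Myh3 and Ncam1). The lowest adjusted p-values were 0.0638 for Myod1 (1.61 ± 0.39) and 0.0894 for Myh3 (5.15 ± 1.35), and Myog had 0.132 (2.96 ± 0.88). For 3 genes, Myod1, Myog and Myh3, all TKO libraries were above all floxed libraries, against 2.35% of all genes. Myod1 passed without library 2 (1.75, 0.0430), without library 4 (1.61, 0.0485) or without library 17 (1.63, 0.0345). Without library 20 the log2 fold changes were 1.24 for Myod1, 1.29 for Myog, 2.35 for Myh3, 0.74 for Ncam1 and 0.32 for Myh8, each still positive and each smaller.

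Under STZ the knockout again had no call among the 10 genes, against 4.89% of all genes. At an unadjusted p under 0.05 there were 4 in edgeR, all higher (Myod1, Myh3, Myh8 and Ncam1), against 18.7% of all genes in either direction, and DESeq2 called 1, Myod1. Myod1 had a log2 fold change of 1.12 ± 0.35 (edgeR adjusted p = 0.0715), Ncam1 1.12 ± 0.48 (0.202), Myh3 2.29 ± 1.04 (0.237) and Myh8 1.77 ± 0.80 (0.234). Myog, called in the pooled comparison, had 0.95 ± 0.76 here (edgeR adjusted p = 0.551), and 0.23 without library 4. No gene of the 10 separated STZ TKO from STZ floxed libraries, against 1.51% of all genes with STZ TKO higher. When library 20, which is no part of this contrast but shares its estimate of the spread, was left out, Myod1, Myh3 and Ncam1 passed (adjusted p = 0.0243, 0.0388 and 0.0184). Myod1 also passed without library 8 (1.24, 0.0466), without library 17 (1.42, 0.0282) and with the run of library codes as a block (1.22, 0.0415). Without library 17 the log2 fold change of Runx1 was 1.86 (0.0805), against 0.67 ± 0.64 (0.640) with it.

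STZ itself changed none of the 10 genes past the threshold in either genotype. In floxed muscle 1.35% of all genes passed; of the 10 genes, Myf6 (log2 fold change 0.85 ± 0.38) and Runx1 (1.64 ± 0.77) had an unadjusted p under 0.05 in edgeR, where 14.4% of genes did, and DESeq2 called 0. Without library 17 they were 0.39 and 0.45. All 5 STZ floxed libraries exceeded all floxed libraries for Myh3 alone, as for 3.62% of all genes, yet its log2 fold change of 1.86 ± 1.22 had an adjusted p of 0.505. In knockout muscle 0.142% of all genes passed and the 10 genes gave 0 calls in edgeR, 0 at an unadjusted p under 0.05, where 11.3% of all genes had one, and 0 in DESeq2. There STZ TKO libraries had a Myog log2 fold change of -1.28 ± 0.68 over TKO libraries (adjusted p = 0.475), and 0.39 (0.752) without library 20.

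The knockout effect with STZ minus that without it was negative for all 10 genes, while 51.4% of all genes had a positive value, and ran from -2.86 ± 1.53 for Myh3 and -2.0 ± 1.13 for Myog to -0.11 ± 1.12 for Myh8 on the log2 scale. None passed (edgeR adjusted p = 1.0 for each, 0 in DESeq2), while 0.0079% of all genes did. At an unadjusted p under 0.05 there were 0 of the 10, against 3.89% of all genes. Without library 20 of TKO the values were -0.05 for Myh3 and -0.34 for Myog, and positive for Myh8 (1.45), Ncam1 (0.38) and Pax7 (0.30). Both knockout effects are given side by side above, and no difference between them was shown.

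Among themselves, the 10 genes fell into genes that went together across libraries and genes that did not. Over 21 libraries Spearman's rho of log2 CPM was 0.88 between Myh3 and Ncam1, 0.86 between Myh3 and Runx1, 0.85 between Ncam1 and Runx1 and 0.81 between Myod1 and Ncam1. Without libraries 4 and 20 these were 0.84, 0.84, 0.82 and 0.75. With the other genes, Myf6 had a rho from -0.38 (Pax7) to 0.27 (Cdh15), and -0.21 with Myog. Cdh15 had a rho from -0.08 (Myod1) to 0.42 (Myh8). The points share groups, library sizes and tissue composition, so these are descriptions without a test.

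**Figure D4:**
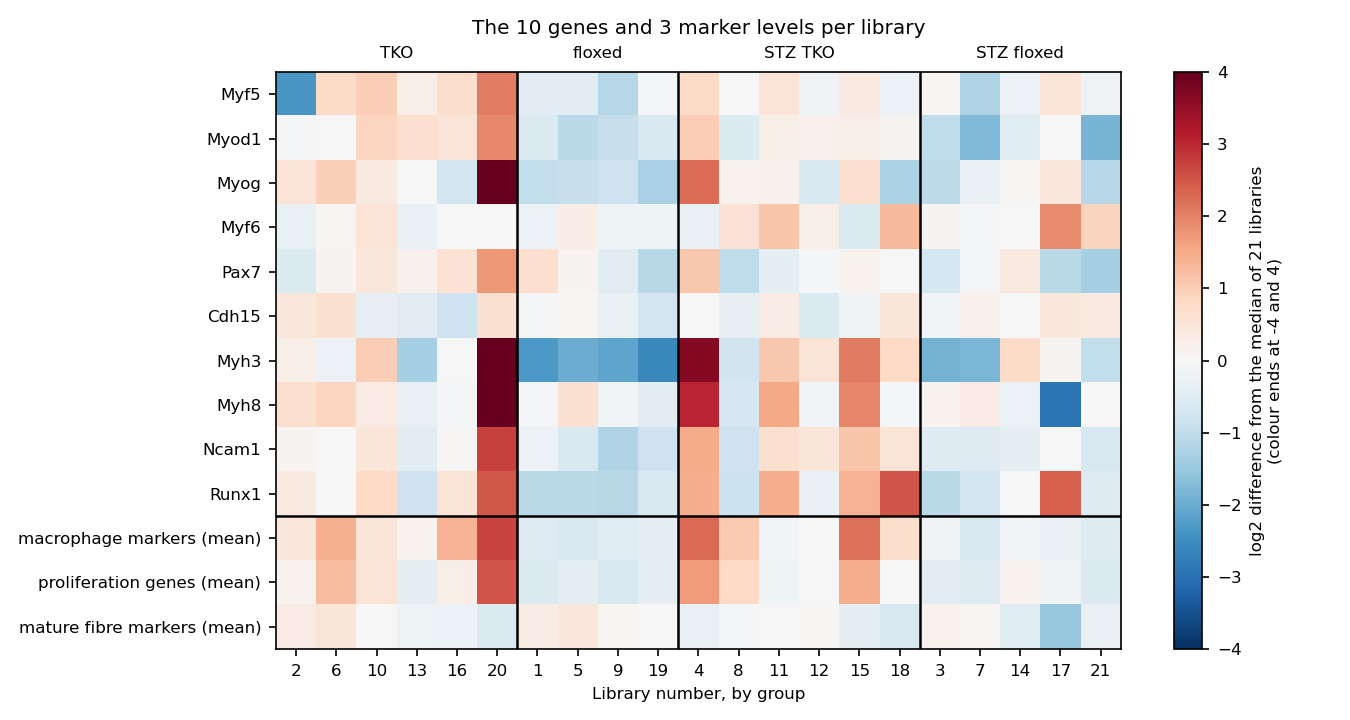
Log2 difference of each library from the median of 21 libraries, for the 10 genes (upper rows) and the mean of 3 marker lists (lower rows), with libraries grouped as TKO, floxed, STZ TKO and STZ floxed. Libraries 20 and 4 are red for most of the 10 genes and for macrophage and proliferation genes, while library 17 is red for Runx1 and Myf6, blue for Myh8 and blue for mature fibre markers.

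The 5 tested genes most like Myog over the 21 libraries were Fam111a (rho 0.89), Chrnd (0.85), the delta subunit of the muscle acetylcholine receptor, Chrna9 (0.84), another acetylcholine receptor subunit, Ccl2 (0.84), a chemokine that attracts monocytes, and Plpp2 (0.82). Without libraries 4 and 20 they had 0.86, 0.79, 0.82, 0.81 and 0.76. Of the other 9 genes, Myh3 was the nearest to Myog, at rho 0.69 and place 67 of 12657. The 5 most like Runx1 were Tuba1c (0.92), a tubulin, Igf2 (0.88), a fetal growth factor, Ankrd10 (0.87), Stra6l (0.87) and Cers6 (0.86), a ceramide synthase, and without libraries 4 and 20 they had 0.90, 0.87, 0.84, 0.86 and 0.83. Myh3 was at place 6 and Ncam1 at place 12 for Runx1.

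Related genes, from lists that hold none of the 10, were looked at in the pooled comparison, where 5.57% of all genes tested rose and 4.23% fell. A few calls in lists of this size are not far from these shares. Of 21 other satellite cell genes 19 were tested, 2 rose and 0 fell, with a median log2 fold change of 0.04. Hes1, a Notch target, rose by 1.13 ± 0.19 on the log2 scale (edgeR adjusted p = 0.00039), with 18.9 ± 5.83 CPM in knockout and 8.53 ± 2.43 CPM in floxed libraries, and Cxcr4, a chemokine receptor that leukocytes also carry, rose by 1.33 ± 0.35 (0.0172). The count was 1 without libraries 4 and 20.

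Of 24 genes of myoblast fusion and differentiation 23 were tested, 3 rose and 0 fell, with a median of -0.03, where 5.57% of all genes rose. The counts without libraries 4 and 20 were 2 that rose and 0 that fell. Mymk, the fusion protein myomaker, passed (edgeR adjusted p = 0.00554), with 382 reads over the TKO libraries, of which library 20 held 351, against 2 over the floxed libraries, and with 169 over the STZ TKO libraries, against 0 over the STZ floxed libraries. Its partner Mymx, below the filter, had 116 reads over the TKO libraries, 111 of them in 1 library, against 1 over the floxed libraries, and 30 over the STZ TKO libraries, against 2 over the STZ floxed libraries. Myof, a membrane repair and fusion protein, rose by 1.43 ± 0.38 (0.0173), and Mef2c, a partner of the myogenic factors, by 0.53 ± 0.16 (0.0324). Of the 2 knockout effects averaged there, Mef2c passed only under STZ (0.99 ± 0.22, edgeR adjusted p = 0.00849). It had 960.1 ± 188.7 CPM in STZ TKO and 481.7 ± 154.4 CPM in STZ floxed libraries. Without STZ 0 genes of this list passed.

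Of 16 genes of the immature sarcomere and cytoskeleton 15 were tested, 4 rose and 1 fell (5.57% and 4.23% of all genes), with a median of 0.41. Tnnt2, the cardiac and fetal troponin T, rose by 3.08 ± 0.66 (edgeR adjusted p = 0.0048), with 22.9 ± 36.2 CPM in knockout and 2.60 ± 1.55 CPM in floxed libraries, and Myl4, the embryonic and atrial myosin light chain, by 2.95 ± 0.78 (0.0184). Igf2 rose by 1.63 ± 0.49 (0.0363) and Vim, an intermediate filament of immature muscle and of non-muscle cells, by 1.08 ± 0.28 (0.0172). Nrap, a protein of myofibril assembly, fell by 0.95 ± 0.17 (0.00094), and under STZ it had 1177.7 ± 284.0 CPM in STZ TKO and 2738.9 ± 768.7 CPM in STZ floxed libraries. Without libraries 4 and 20 the counts were 1 that rose and 1 that fell.

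Of 19 genes of the denervation response 18 were tested, 4 rose and 1 fell (5.57% and 4.23% of all genes), with a median of 0.18. Chrng, the fetal gamma subunit of the acetylcholine receptor, passed (edgeR adjusted p = 0.00274) with 537 reads over the TKO libraries, of which library 20 held 486, against 7 over the floxed libraries, and with 145 over the STZ TKO libraries, against 1 over the STZ floxed libraries. Sln, the calcium pump inhibitor sarcolipin, rose by 3.22 ± 0.72 (0.00588), Chrna1, the alpha subunit, by 1.67 ± 0.36 (0.00469) and Chrnd by 1.58 ± 0.42 (0.0173). The 1 gene that fell was Fbxo32, the ubiquitin ligase atrogin-1, at 568.9 ± 584.8 CPM in knockout and 1693.8 ± 1624.0 CPM in floxed libraries (-1.34 ± 0.37, 0.0221), a FoxO target that was named after its values were seen. Counts without libraries 4 and 20 were 5 that rose and 0 that fell, of 17 tested.

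Proliferation genes and macrophage markers were also high in libraries 20 and 4. Of 16 proliferation genes 10 were tested and 5 rose, among them Cdk1 (log2 fold change 3.29 ± 0.73, edgeR adjusted p = 0.00545), Top2a (3.21 ± 0.75, 0.00877), Mki67 (3.14 ± 0.72, 0.00734) and Rrm2 (1.92 ± 0.47, 0.0102), with a median of 1.61. Their summed level was 48.7 to 231.1 CPM in TKO libraries, against 33.7 to 42.3 CPM in floxed libraries, and 46.2 to 121.6 CPM in STZ TKO libraries, against 36.8 to 76.7 CPM in STZ floxed libraries. Leaving out libraries 4 and 20 gave 4 of 9 tested that rose, with a median of 0.79. Leaving out libraries 4, 15, 16 and 20, which had the highest macrophage marker levels, gave 0 of 8 in edgeR, with 4 at an unadjusted p under 0.05 and a median of 0.58. With all libraries DESeq2 called 7 of the 10.

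Of 16 macrophage markers 15 were tested and 13 rose, with a median log2 fold change of 1.78, which was 1.53 without libraries 4 and 20. The leading ones were Mpeg1 (3.72 ± 0.59, edgeR adjusted p = 0.00036), Cx3cr1 (3.24 ± 0.83, 0.015), Lyz2 (2.49 ± 0.41, 0.000505) and Cd68 (2.33 ± 0.51, 0.00524). Their summed level was 328.0 to 1932.6 CPM in TKO libraries, against 187.2 to 253.7 CPM in floxed libraries, and 305.5 to 2434.9 CPM in STZ TKO libraries, against 214.4 to 320.3 CPM in STZ floxed libraries. The highest 3 were libraries 15, 20 and 4. With the mean macrophage marker level as a covariate, the pooled log2 fold changes were 0.77 for Myod1 (adjusted p = 0.263), 0.51 for Myh3 (0.831), 0.19 for Ncam1 (0.892) and -0.36 for Myog (0.851). All TKO libraries were above all floxed libraries in this level, so the covariate and the genotype are partly the same variable and cannot be told apart here. Without libraries 4, 15, 16 and 20 Myod1 (1.06, 0.00976), Myh3 (1.66, 0.0198) and Ncam1 (0.73, 0.0397) passed, and Myog did not (0.74, 0.120).

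**Figure D5:**
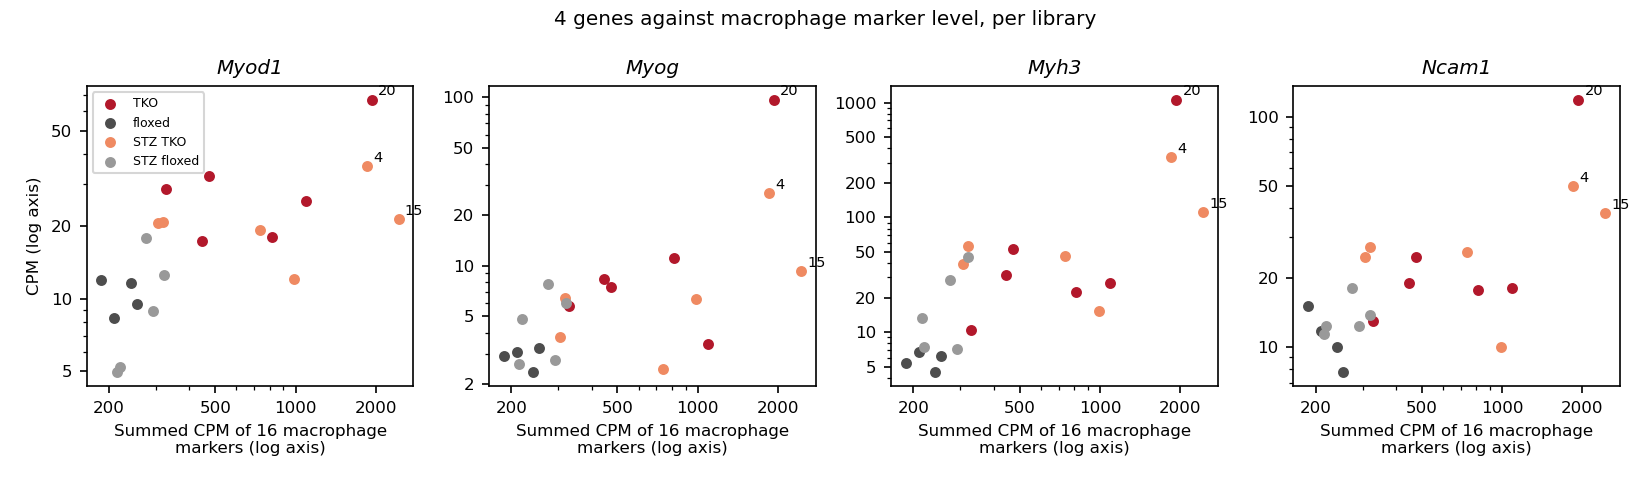
CPM of Myod1, Myog, Myh3 and Ncam1 against the summed CPM of 16 macrophage markers, both on log axes, with a point per library coloured as TKO, floxed, STZ TKO and STZ floxed. Libraries 20 and 4 are at the top right of each panel, while library 15, with the highest marker level of 2434.9 CPM, had 9.25 CPM of Myog.

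Markers of the other cell types gave fewer calls. For scale, 5.57% of all genes tested rose and 4.23% fell in the pooled comparison. Of 12 fibroblast markers 2 rose (Col3a1 by 1.91 ± 0.50 and Fn1 by 1.57 ± 0.42, edgeR adjusted p = 0.0178 and 0.0199), and DESeq2 called 3. In edgeR 0 were called without libraries 4 and 20, with 3 at an unadjusted p under 0.05. Of 8 Schwann cell markers tested 0 passed in edgeR, 1 had an unadjusted p under 0.05 and DESeq2 called 0. Their summed level was 125.2 to 426.5 CPM in TKO libraries, against 145.2 to 415.2 CPM in floxed libraries. Of 13 lymphocyte and other leukocyte markers 3 were tested and Ptprc, the pan-leukocyte CD45, rose by 1.76 ± 0.50 (0.0280), a call that edgeR made neither without libraries 4 and 20 nor without the count filter, each with 1 of 3 at an unadjusted p under 0.05, and that DESeq2 made with all libraries. Of 10 endothelial markers Tie1 fell by 0.41 ± 0.12 (0.0241), with a list median of -0.29 and 6 at an unadjusted p under 0.05, DESeq2 and the run block each called 4 lower, and edgeR without the count filter called 0, with 5 at an unadjusted p under 0.05. Of 18 mature fibre markers Casq1, the calsequestrin of fast fibres, rose by 0.88 ± 0.24 (0.0221). What part the other cells of the tissue had in the levels of the 10 genes was not tested.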

How the data were processed

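The files hold read counts per Ensembl mouse gene, deposited by the authors as whole numbers without normalization. Per the labels' protocols, RNA was extracted with Trizol and made into directional libraries, and the submitters' processing notes name STAR, featureCounts and the build GRCm38.p4; whether strand was used and how reads with several matches were treated is not stated in these sources. Symbols (45229 of 46071 identifiers) and merged exon lengths came from GENCODE M21 on GRCm38, and the identifiers without a symbol carried 0.0478% of the counts. Library totals were 2951290 to 7687823, so genes with few reads, such as Myf5 and Pax7, have wide counting error.

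Genes were filtered by filterByExpr in edgeR 4.0.16 (R 4.3.3), which kept 12658, and scaled by TMM (factors 0.862 to 1.35). One robust quasi-likelihood fit with 4 group means used all 21 libraries, with a biological coefficient of variation of 0.325, and tested two-sided with Benjamini-Hochberg adjustment over all genes at 0.05. The pooled knockout effect is the mean of the knockout effects with and without STZ. Errors of fold changes are standard errors, the fold change divided by the square root of F; those of levels are SDs. Log2 CPM for correlations used a prior count of 2. The test was checked on simulated counts. Groups came from genotype and drug in the labels. The labels do not say that each library is a separate animal, so p-values measure the spread between libraries.

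The 10 genes, the lists and the libraries left out were chosen with earlier results of these data known. Named genes outside the 10 were, by rule, up to 4 per list with the largest fold change past the threshold and the 5 most like Myog and Runx1; exceptions are stated. Alternatives were DESeq2 1.42.0 and its size factors, no filter, the run of consecutive library codes in the titles as a block, the mean macrophage marker level as a covariate, and fits without libraries; leaving out 4 and 20 together was chosen after seeing the data. An exact test planned for genes below the filter, with its prior count, was not needed, as all 10 passed.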

Additional observations from a re-analysis of the deposited data

Results flagged for a closer look

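Of 40 sets of values (10 genes in 4 groups), 13 had 1 library far from the others of its group by Dixon's test. Chance gives about 1 in 20 for independent sets of normally spread values. These sets share libraries, and several of the genes go together, so that rate is no measure for the 13. Library 20 of TKO gave 7 of the high values: 67.2 CPM of Myod1, 96.7 of Myog, 10.3 of Pax7, 1063.1 of Myh3, 289.4 of Myh8, 118.7 of Ncam1 and 62.2 of Runx1. Its Myf6 (77.9 CPM) and Cdh15 (40.9 CPM) lay within the range of the other TKO libraries. Library 4 of STZ TKO stood apart with 27.1 CPM of Myog and 337.3 CPM of Myh3. Both libraries had high summed macrophage markers (1932.6 and 1847.8 CPM) and high proliferation genes, whose part in these values was not tested.

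Library 17 of STZ floxed stood apart with 58.5 CPM of Runx1, against 5.25 to 11.2 CPM in the other STZ floxed libraries. The other values far from their group were smaller steps: 113.8 CPM of Myf6 in library 10 of TKO, 96.9 CPM of Myf6 in library 5 of floxed and 7.16 CPM of Runx1 in library 19 of floxed.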

How the results depend on the processing

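No paired analysis was possible because the title numbers 1 to 21 are unique and pair no libraries between groups; the runs of consecutive library codes, which span groups, were used as a block instead. Calls among the 10 genes for the knockout without STZ numbered 0; they were 4 with DESeq2 and 1 without libraries 17 and 18, and 0 to 1 with 1 library left out in turn. For the knockout under STZ the 0 calls became 1 with DESeq2, 1 with the run of library codes as a block, 1 without libraries 17 and 18, and 0 to 3 with 1 library left out. For the pooled knockout effect the 4 calls became 2 without a count filter (Myod1 and Myh3) and 0 in edgeR with the macrophage covariate (1 at an unadjusted p under 0.05; DESeq2 was not run with it), where calls over all genes fell to 151, against 1240; with 1 library left out they were 3 to 6, and without libraries 4 and 20 they were 3. With that covariate the pooled log2 fold change of Myog was -0.36, a change of sign without a call. The pooled signs of Myh8, Pax7, Cdh15 and Myf6 changed with it as well, and why was not tested. Myog also lost its call with the run block (1.69, adjusted p = 0.0643), and the block brought calls for Myh8 and Runx1. The STZ effects and the interaction had 0 calls under each alternative run. Over the alternatives for single genes, 1693 values kept their side of the threshold, 29 gained a call and 17 lost one. A further 1, that of Myog above, lost its call with a change of sign. Signs of values without a call also changed in places. At these depths Myf5, with 1 to 43 reads per library, and Pax7, with 5 to 71, could show only large differences.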
